A study of Mus musculus with 10 samples.

Results

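The NALCN sodium leak channel complex is described here by the transcripts of its 4 genes, Nalcn, Unc79, Unc80 and Fam155a (also called Nalf1), in 10 RNA-seq libraries of mouse hippocampal CA3. The genes were chosen by name, as the known subunits of this channel, and with their response to Mef2c shRNA already in view. All 4 were found among the 18453 genes of the count tables, and all 4 were among the 14393 genes with enough counts to be tested. The series is titled for an anxiety model in mice and for several brain regions, of which CA3 is analysed here. All mice were of strain C57BL/6J and were infused stereotaxically with adeno-associated virus (AAV) in the left and right CA3. The 5 scramble libraries come from mice whose virus encoded a scrambled hairpin, and the 5 knockdown libraries from mice whose virus encoded an shRNA directed at the transcription factor Mef2c, intended for CA3 pyramidal neurons. The control mice were thus also injected and infected. Each library is tagged male, although the injection protocol speaks of both sexes, and the age of the mice, the time after injection and the promoter that drives the hairpin are not stated. It is not stated either whether each library is a separate animal, so that errors measure the spread between these libraries.

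NALCN is a cation channel that is not gated shut at rest and lets a small inward sodium current flow at the resting potential, which brings neurons closer to firing. Its pore subunit, encoded by Nalcn, has the same repeated domain plan as voltage-gated sodium and calcium channels. Unc79 and Unc80 are very large intracellular proteins that hold the channel together and bring it to the membrane, and Fam155a is a membrane protein with an extracellular cysteine-rich domain that sits over the pore. Channel current in neurons depends on the subunits together, and loss of the pore subunit or of UNC80 in people causes severe developmental disorders.

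Library totals ranged from 14701928 to 17798090 counts, and every knockdown library was deeper (lowest 15669620) than every scramble library (highest 15637076). Each member had between 1259 and 7114 reads in each library. Values are given in CPM, counts scaled to a common library size, after edgeR's TMM scaling. The targeted gene, Mef2c, stood at 166, 198, 176, 312 and 175 CPM in scramble libraries 1 to 5 and at 111, 131, 121 and 163 CPM in knockdown libraries 1 to 4. In the library labelled knockdown 5 it was at 286 CPM, above 4 of the 5 scramble libraries and against its label. Over all libraries Mef2c did not pass (log2 fold change -0.34, SE 0.30; adjusted p = 0.489 by edgeR's quasi-likelihood test; exact two-sided permutation p = 0.246, where the smallest possible is 0.0079). The score of 8 cortical layer markers was also highest of each group in the libraries with the most Mef2c, at 0.54 in scramble library 4 (other scramble libraries -0.10 to 0.08) and 0.81 in the library labelled knockdown 5 (other knockdown libraries -0.57 to 0.21). With this score as a covariate Mef2c had a log2 fold change of -0.18 (SE 0.096, edgeR adjusted p = 0.201). Pan-neuronal markers such as Rbfox3 and Snap25 summed to between 5748 and 6115 CPM in scramble and between 5251 and 6169 CPM in knockdown libraries. CA3 pyramidal markers such as Grik4 and Cpne4 summed to between 1092 and 1282 and between 1029.5 and 1436 CPM. Most of the CA3 sum came from Nptx1 (749 CPM in scramble, 817 CPM in knockdown). Of the 8 CA3 pyramidal markers 0 passed as higher and 1 as lower, where 7.61% of all tested genes were lower. Their log2 fold changes ran from -0.41 (Kcnq5) to 0.36 (Bok). Of the 8 markers of either list, 0 were at 0 counts in any library.

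The members are large, widely spread genes on 4 chromosomes. Nalcn (chromosome 14, positions 123276634 to 123627144, minus strand, GRCm38, ENSMUSG00000000197) spans 350.5 kb, and its longest annotated transcript has 44 exons and 7122 bases. Unc79 (chromosome 12, 102948859 to 103184065, plus strand, ENSMUSG00000021198) spans 235.2 kb with 49 exons and 8874 bases in its longest transcript. Unc80 (chromosome 1, 66468367 to 66699148, plus strand, ENSMUSG00000055567) has the longest transcript, with 65 exons and 13613 bases over 230.8 kb. Fam155a (chromosome 8, 9205902 to 9771161, minus strand, ENSMUSG00000079157) differs from the other 3 in having the widest span, 565.3 kb, and the shortest transcript, with 3 exons and 3388 bases. Of 18 other annotated genes that overlap a member's span, 0 have a row in the count tables.

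For the 3 genes that were lower after Mef2c shRNA, the 250 bases before the transcript start used by the RefSeq promoter table are shown, since the perturbed protein is a DNA-binding transcription factor. That promoter table has no entry for Fam155a, so its window was neither shown nor searched and cannot be compared. The sequences of the 3 genes come from RefSeq (GRCm38.p6), run 5′ to 3′ along the gene's own strand, and carry CpG pairs in capitals. They lie at chr14:123627145-123627394 (minus strand) for Nalcn, chr12:102948609-102948858 (plus strand) for Unc79 and chr1:66467684-66467933 (plus strand) for Unc80. The windows of Nalcn and Unc79 end next to the gene start given above, and that of Unc80 ends upstream of it. RefSeq's outermost gene bounds (123627330 for Nalcn, 102947383 for Unc79 and 66467915 for Unc80) reach farther out, so that the Unc79 window lies wholly, and the other windows partly, inside the RefSeq gene.
Nalcn: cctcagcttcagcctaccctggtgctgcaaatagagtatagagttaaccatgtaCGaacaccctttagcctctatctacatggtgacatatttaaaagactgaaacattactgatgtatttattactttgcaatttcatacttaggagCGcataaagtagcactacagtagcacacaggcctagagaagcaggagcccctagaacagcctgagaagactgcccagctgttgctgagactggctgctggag
Unc79: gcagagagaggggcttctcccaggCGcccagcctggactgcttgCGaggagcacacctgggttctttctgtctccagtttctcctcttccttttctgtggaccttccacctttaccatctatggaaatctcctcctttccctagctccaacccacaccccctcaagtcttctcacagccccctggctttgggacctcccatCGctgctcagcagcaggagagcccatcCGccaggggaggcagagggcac
Unc80: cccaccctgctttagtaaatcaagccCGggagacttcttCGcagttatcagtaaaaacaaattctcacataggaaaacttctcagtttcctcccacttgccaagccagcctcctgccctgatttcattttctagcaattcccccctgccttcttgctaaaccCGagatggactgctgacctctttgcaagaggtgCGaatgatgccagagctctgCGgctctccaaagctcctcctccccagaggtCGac
The sequences hold 2, 4 and 6 CpG pairs in that order, against a median of 6 in 32851 promoter windows of the same length, and 45.2%, 59.6% and 51.2% of their bases are G or C. The MEF2 consensus, searched on both strands, has 0 matches in the windows of Nalcn, Unc79 and Unc80 and at least 1 match in 2.92% of all windows. Its 8-base variants TAAAAATA and TATTTATA, which can overlap a consensus match, also have 0 matches in these 3 and occur in 2.45% and 1.56% of all windows. The cyclic AMP response element TGACGTCA has 0 matches in them and occurs in 1.55% of all windows. The absence of a match concerns these windows alone.

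In scramble-injected CA3 all subunits of the channel were expressed, at levels per kb of longest transcript above those of most tested genes. Unc80 lay above 85.6% of the tested genes on this scale, Nalcn above 72.4% and Unc79 above 62.8%. Divided by the length of the longest transcript, Fam155a stood highest at 33.9 ± 1.56 CPM per kb (SD, n = 5), above 87.4% of the tested genes. Unc80 followed at 30.3 ± 1.95 CPM per kb (SD, n = 5), and the ranges of the 2 genes met, 31.9 to 36 for Fam155a and 28.6 to 33.4 for Unc80. The pore gene Nalcn stood at 16.6 ± 1.18 CPM per kb (SD, n = 5), about the level of the voltage-gated sodium channel gene Scn1a at 15.3 ± 1.35. Unc79 was lowest of the 4 at 11.9 ± 0.595 CPM per kb (SD, n = 5), and its range, 10.9 to 12.4, lay below that of Nalcn, 15.5 to 18.5. The order of the upper pair depends on the length used, and so does the gap between Nalcn and Unc79. Divided by all annotated exon bases of the gene, Unc80 stood at 28.6 ± 1.84 CPM per kb, Fam155a at 17.6 ± 0.807, Nalcn at 8.03 ± 0.57 and Unc79 at 7.39 ± 0.37 (SD, n = 5 each). In both scales Unc80 exceeded its partner Unc79 and the pore gene.

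Pore subunit. Nalcn stood at 116, 132, 110.2, 113 and 119 CPM in scramble libraries 1 to 5. Knockdown libraries 1 to 4 had 95.2, 85.1, 83.6 and 80.8 CPM, and the library labelled knockdown 5 had 86.8 CPM. The groups did not overlap: every knockdown library, including the one with a high Mef2c level, lay below every scramble library. The mean went from 118 ± 8.38 to 86.3 ± 5.45 CPM (SD, n = 5 each), or 73.1% of the scramble mean, with a log2 fold change of -0.45 (SE 0.065).

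Large intracellular subunits. Unc80 stood at 391, 455, 389.9, 418 and 411 CPM in scramble libraries 1 to 5. Knockdown libraries 1 to 4 had 284, 254, 236 and 259.7 CPM, and the library labelled knockdown 5 had 299.9 CPM. These groups were also apart: the lowest scramble library lay above the library labelled knockdown 5, the highest of its group. The mean went from 413 ± 26.5 to 267 ± 25.3 CPM (SD, n = 5 each), a log2 fold change of -0.63 (SE 0.073), the largest of the 4 members. Unc79 stood at 105, 108, 109.9, 96.4 and 107 CPM in scramble libraries 1 to 5. Knockdown libraries 1 to 4 had 96.8, 74.4, 79 and 77.7 CPM, and the library labelled knockdown 5 had 82.7 CPM. Here the groups met: knockdown library 1 lay just above scramble library 4, and the other 4 knockdown libraries lay below all scramble libraries. The mean of Unc79 went from 105 ± 5.28 to 82.1 ± 8.76 CPM (SD, n = 5 each), a log2 fold change of -0.36 (SE 0.073).

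Extracellular subunit. Fam155a stood at 116, 112, 108, 115 and 122 CPM in scramble libraries 1 to 5. Knockdown libraries 1 to 4 had 115, 111, 132 and 106 CPM, and the library labelled knockdown 5 had 129.9 CPM. The groups overlapped, with 2 knockdown libraries above and 1 below the scramble range. Its means were 115 ± 5.28 and 119 ± 11.5 CPM (SD, n = 5 each), a log2 fold change of 0.05 with a 95% interval from -0.10 to 0.20. The 95% intervals of the other 3 members were -0.59 to -0.31 for Nalcn, -0.52 to -0.20 for Unc79 and -0.79 to -0.47 for Unc80. Because the members were chosen with this comparison known, these intervals are descriptions and do not serve as tests.

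**Figure D1:**
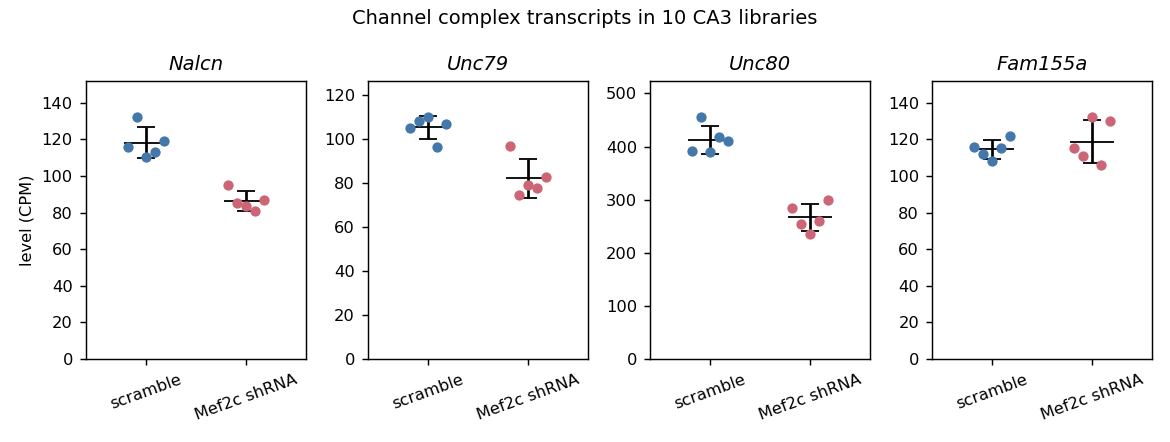
Level of each member (CPM, linear axis from 0) in the 5 scramble and 5 Mef2c shRNA libraries. Points are libraries in the order of their numbers from left to right, horizontal bars are group means and error bars are SD. The groups are apart for Nalcn and Unc80, meet at 1 library for Unc79 and overlap for Fam155a.

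By the edgeR test over all genes, 3 of the 4 members passed an adjusted p of 0.05, all lower, where 12.3% of all tested genes passed, 7.61% as lower and 4.66% as higher. The groups did not overlap in 2 of the 4 members and in 9.34% of all tested genes. The members were chosen with this comparison known, so these counts describe them and support nothing further. The median log2 fold change was -0.41 over the members and 0.016 over all tested genes. By transcript length, 10.7% of tested genes passed as lower at 4 to 8 kb, the class of Nalcn. At 8 to 12 kb, the class of Unc79, 49.9% did, and beyond 12 kb, the class of Unc80, 63.2% did. In bulk tissue, fewer cells that express a gene and less RNA per cell cannot be told apart.

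Relative to the pore gene and to Unc80, Fam155a stood higher in the knockdown libraries. Within each library, the ratio of Fam155a to Unc80, each per kb of longest transcript, was 1.12 ± 0.0856 in scramble (range 0.987 to 1.2) and 1.8 ± 0.253 in knockdown libraries (range 1.63 to 2.24; SD, n = 5 each). The ratio of Fam155a to Nalcn was 2.05 ± 0.154 and 2.9 ± 0.318, with ranges of 1.78 to 2.15 and 2.54 to 3.31. The groups did not overlap in these 2 ratios. The ratio of Fam155a to Unc79 did overlap, at 2.86 ± 0.225 (range 2.58 to 3.14) and 3.82 ± 0.49 (range 3.11 to 4.36). The ratio of Unc80 to Unc79 overlapped as well, at 2.56 ± 0.215 (range 2.31 to 2.83) and 2.13 ± 0.192 (range 1.91 to 2.36). The ratio of Unc79 to Nalcn overlapped too, at 0.718 ± 0.0536 and 0.762 ± 0.0411, and so did that of Unc80 to Nalcn, at 1.83 ± 0.0639 and 1.62 ± 0.129. These ratios come from the same comparison that the members were chosen on and are given without a test. Dividing by length leaves in place the relation of fold change to transcript length described below, and the members differ in length. With the length and GC correction described there, the log2 fold changes were 0.01 for Fam155a, -0.20 for Nalcn and -0.18 for Unc80. How often other gene pairs shift this far was not tested.

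**Figure D2:**
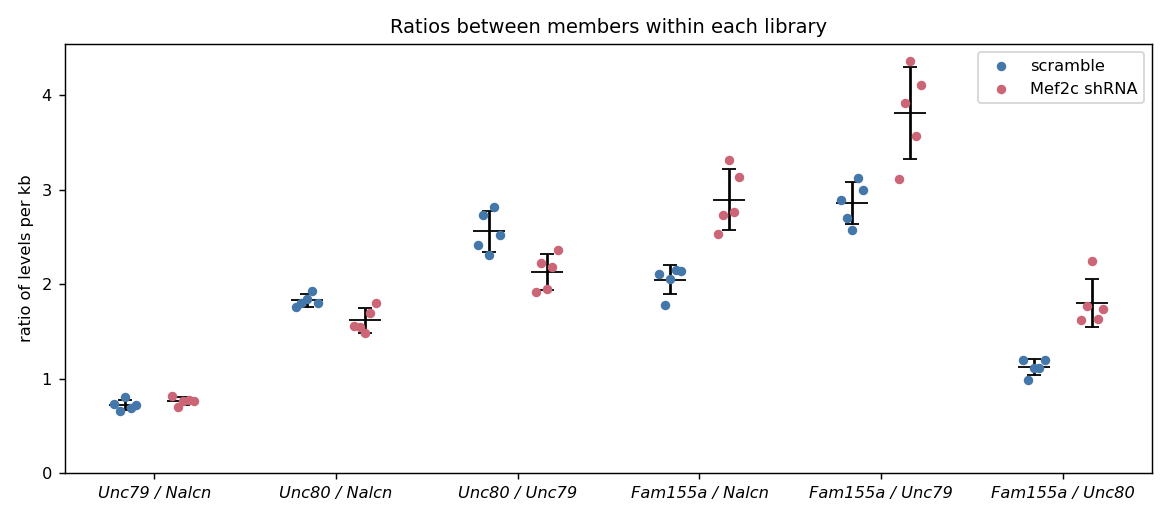
Ratio of 2 members' levels, each in CPM per kb of longest transcript, within each library. Points are libraries, horizontal bars group means and error bars SD. The ratios of Fam155a to Nalcn and to Unc80 are higher in all Mef2c shRNA libraries than in all scramble libraries, and the other 4 ratios, that of Fam155a to Unc79 included, overlap. No correction for the relation of fold change to transcript length is applied.

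Across all genes, the fold change of knockdown against scramble went with transcript length, and the members have to be read beside that. The median log2 fold change of tested genes was 0.06 at 2 to 4 kb, -0.10 at 4 to 8 kb, -0.32 at 8 to 12 kb and -0.48 beyond 12 kb. Fam155a at 0.05 lay near the median of its length class, with 46.6% of the class below it. Unc79 at -0.36 also lay near the median of its class, with 40.2% below it. Unc80 at -0.63 lay 0.16 under its class median, with 21.6% of the class below it. Nalcn stood farthest from its class, 0.36 under the median, with 4.87% of the class below it. This placing rests on its longest annotated transcript of 7.12 kb, near the upper edge of the 4 to 8 kb class. RefSeq places the 3′ end of Nalcn 956 bases farther out, and the next class had the lower median of -0.32. The classes were not redrawn with other lengths, so how far Nalcn stands from genes of its length depends on this choice. After each library was corrected for the length and GC content of transcripts, the log2 fold changes were -0.20 (SE 0.053) for Nalcn, -0.18 (SE 0.082) for Unc80, -0.07 (SE 0.058) for Unc79 and 0.01 (SE 0.071) for Fam155a. After this correction Nalcn and Unc80 stood close together, and 0 of the 4 members passed the edgeR test over all genes (2 had an unadjusted p under 0.05).

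**Figure D3:**
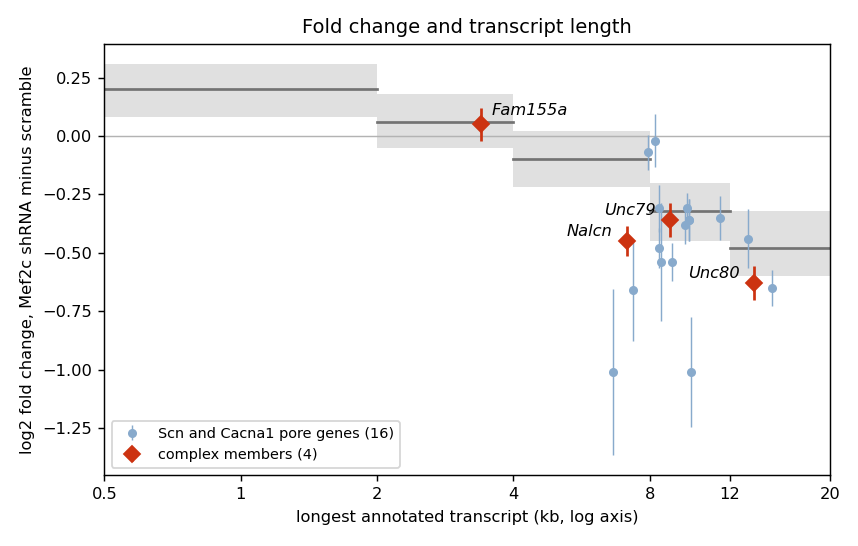
Log2 fold change (Mef2c shRNA minus scramble) against the length of the longest annotated transcript on a log axis. Diamonds are the 4 members and circles the 16 tested voltage-gated sodium and calcium channel pore genes, with SE; grey lines and bands are the median and the middle 50% of all tested genes in 5 length classes, the outer 2 of which are drawn to the ends of the axis. Fam155a and Unc79 lie close to the median of their class, and Nalcn and Unc80 lie below their bands. The classes rest on the longest annotated transcript, and Nalcn lies near the upper edge of its class.

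Some markers of other cells differed between the groups too. Of 6 endothelial markers 2 rose and 0 fell, and of 8 astrocyte markers 1 rose and 1 fell. Of 8 oligodendrocyte markers 0 rose and 0 fell. Of 8 microglia markers, 4 rose, where 4.66% of all tested genes rose. The sum of the 8 ranged from 285 to 388 CPM in scramble and from 330.4 to 641 CPM in knockdown libraries, with 0 of the 8 at 0 in any library. When the score of these microglia genes was a covariate, the log2 fold changes were -0.45 (SE 0.085) for Unc80, -0.35 (SE 0.094) for Nalcn, -0.27 (SE 0.104) for Unc79 and 0.09 (SE 0.104) for Fam155a. With this covariate 0 of the 4 members passed the edgeR test (3 had an unadjusted p under 0.05), and 0 of all tested genes passed. Of the 8 pan-neuronal markers 1 passed, the microtubule gene Map2, which was lower (1181 against 804 CPM), where 7.61% of all tested genes were lower. With the pan-neuronal score as a covariate, the values were -0.59 for Unc80, -0.44 for Nalcn, -0.34 for Unc79 and 0.07 for Fam155a. Interferon-stimulated genes were highest in knockdown libraries 2, 3 and 4 (scores of 2.02, 1.62 and 1.92 log2 units). The 8 listed genes summed to between 18.2 and 109.6 CPM in scramble and between 21.9 and 309 CPM in knockdown libraries, with 0 of them at 0 counts in any library. Without those 3 libraries the log2 fold changes were -0.51 for Unc80, -0.38 for Nalcn, -0.24 for Unc79 and 0.09 for Fam155a, and again 0 of the 4 members and 0 of all tested genes passed the edgeR test (3 members had an unadjusted p under 0.05). Without the library labelled knockdown 5 they were -0.67, -0.45, -0.36 and 0.02 in the same order.

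**Figure D4:**
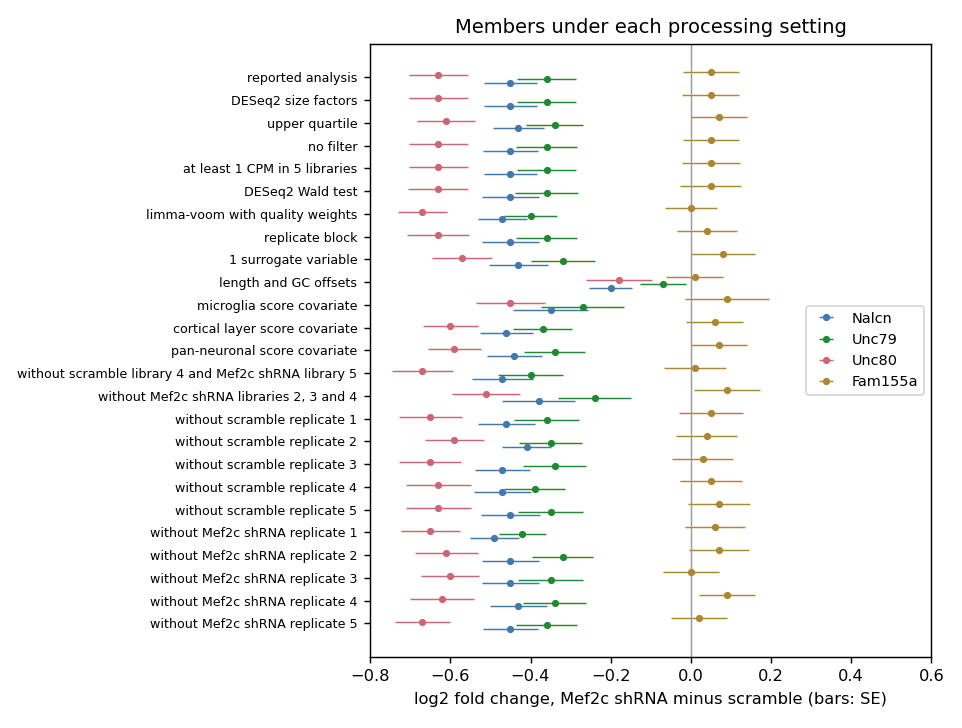
Log2 fold change (Mef2c shRNA minus scramble) of each member under the reported analysis (main, top) and 24 alternatives; points are estimates and bars SE. Nalcn, Unc79 and Unc80 are below 0 in all 24 alternatives and come nearest to 0 with the length and GC offsets, and Fam155a stays between 0 and 0.09.

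Within the groups the members varied little. The coefficient of variation was 7.1% for Nalcn, 5.01% for Unc79, 6.41% for Unc80 and 4.6% for Fam155a in the scramble libraries, and 6.32%, 10.7%, 9.49% and 9.67% in the knockdown libraries. Scramble library 2 had the highest Nalcn and Unc80 of its group, by 0.16 and 0.14 log2 units over the group mean. Knockdown library 1 had the highest Nalcn and Unc79 of its group, by 0.14 and 0.24. In deviations from the group means over the 10 libraries, Pearson's r was 0.67 between Nalcn and Unc80, 0.63 between Nalcn and Unc79 and 0.41 between Unc79 and Unc80, and between 0.02 and 0.10 for Fam155a with the other 3. Spearman's rho was 0.65, 0.41 and 0.26 for the first 3 pairs. For Fam155a it was 0.25 with Nalcn, 0.08 with Unc79 and 0.05 with Unc80. Pearson's r of the same deviations with the microglia score was -0.86 for Unc80, -0.54 for Nalcn, -0.41 for Unc79 and -0.2 for Fam155a. With the pan-neuronal score it was 0.71, 0.21, 0.23 and 0.38 in that order. Genes measured in the same library share its depth and tissue make-up, and both differ between the 10 libraries. These coefficients are therefore descriptions, given without a test, and do not single out the members from other genes.

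The genes whose deviations most resembled a member's were sought among 12738 genes that averaged 2 CPM or more. For Nalcn they included Reps2, an endocytic adaptor (r = 0.954 over 10 libraries), and the kinase gene Galk2 (r = 0.928). For Unc79 they were the tubulin cofactor Tbcd (r = 0.982), the stress kinase Eif2ak4 (r = 0.957) and Thsd7b (r = 0.956). For Unc80 they were the organic anion transporter Slc22a6 (r = 0.969), Fibin (r = 0.967) and the scavenger receptor Colec12 (r = 0.966). These 3 were low, at 4.6, 2.15 and 8.23 CPM, and did not pass the test between the groups. For Fam155a they were Mfsd11 (r = 0.95), Proz (r = 0.92) and Ajap1 (r = 0.904). These coefficients are the highest of that many genes over only 10 libraries, and are a description without a test.

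Partners and regulators of the channel were described from a list of 20 genes, which holds proteins that bind the complex and the receptors and kinases that signal to it. Of the 19 that could be tested, 1 rose, 0 fell and 18 did not pass, where 4.66% of all tested genes rose and 7.61% fell. Their median log2 fold change was 0.02, against 0.016 over all tested genes. The gene that rose was Ntsr2, a neurotensin receptor, from 137 ± 8.4 to 168 ± 17.4 CPM (SD, n = 5 each), a log2 difference of 0.30 (SE 0.075, edgeR adjusted p = 0.0234). The Src kinase gene, which can act between receptors and the channel, stood at 168 ± 12.1 and 189 ± 8.04 CPM (0.17, SE 0.061, edgeR adjusted p = 0.0821). Sik1, a salt-inducible kinase, stood at 17.7 ± 3.26 and 13.3 ± 2.6 CPM (-0.41, SE 0.147, edgeR adjusted p = 0.0808), and the G protein gene Gnaq had a log2 fold change of -0.19 (SE 0.074, edgeR adjusted p = 0.101). The close relative of Fam155a, Nalf2 (Fam155b, named Tmem28 in this annotation), stood at 35.9 ± 3.19 and 36.2 ± 4.13 CPM (0.01, SE 0.09). Per kb of longest transcript it was at 9.19 ± 0.815 CPM in scramble libraries, below Fam155a at 33.9 ± 1.56. The count of the list was 0 without scramble library 2, 4 or 5, without knockdown library 4, or with the length and GC correction (3 at an unadjusted p under 0.05 in each of these), and 4 without knockdown library 1.

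Pore genes of voltage-gated sodium and calcium channels, built on the same plan as Nalcn, formed another list. Of 20 listed genes 16 could be tested. Of these, 10 fell, 0 rose and 6 did not pass, where 7.61% of all tested genes fell. By transcript length, 10.7% of tested genes fell at 4 to 8 kb, 49.9% at 8 to 12 kb and 63.2% beyond 12 kb. The median log2 fold change of the list was -0.41, against 0.016 over all tested genes, -0.32 at 8 to 12 kb and -0.48 beyond 12 kb. Cacna1e, which carries R-type calcium current, fell from 566 ± 39 to 361 ± 37.5 CPM (SD, n = 5 each), by 0.65 on the log2 scale (SE 0.076, edgeR adjusted p = 0.000654). Scn2a, a sodium channel of axons, fell from 351 ± 30.4 to 242 ± 25.8 CPM (-0.54, SE 0.081, edgeR adjusted p = 0.00163), and Scn1a fell from 128 ± 11.3 to 91.8 ± 10.6 CPM (-0.48, SE 0.086, edgeR adjusted p = 0.00436). Cacna1d, an L-type channel gene, fell from 87 ± 5.01 to 70 ± 5.46 CPM (-0.31, SE 0.067, edgeR adjusted p = 0.0109). Cacna1a, the P/Q-type channel gene, did not pass (-0.07, SE 0.076), and neither did Cacna1h (-0.02, SE 0.113). All 16 have transcripts between 6.62 and 14.92 kb. With the length and GC correction 0 of the 16 passed, 4 had an unadjusted p under 0.05, and Cacna1e stood at -0.19 (SE 0.052, edgeR adjusted p = 0.0853). The count was 5 without scramble library 2, 6 without scramble library 4, knockdown library 2 or knockdown library 4, and 0 without knockdown libraries 2, 3 and 4 together (8 at an unadjusted p under 0.05).

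Tandem-pore potassium channels carry the outward leak that opposes NALCN at rest. Of 14 listed genes 10 could be tested, of which 1 rose, 1 fell and 8 did not pass. Over all tested genes 4.66% rose and 7.61% fell. The median log2 fold change of the list was 0.03. Kcnk1 rose from 68.9 ± 8.16 to 86.4 ± 10.5 CPM (SD, n = 5 each; 0.33, SE 0.096, edgeR adjusted p = 0.0419). Kcnk9, which encodes the acid-sensitive channel TASK-3 and has a transcript of 12.3 kb, fell from 124 ± 8.98 to 82.7 ± 21.2 CPM (-0.58, SE 0.147, edgeR adjusted p = 0.0289). Kcnk6 (0.61, SE 0.227) and Kcnk4 (0.19, SE 0.121) did not pass. With the length and GC correction 0 of the 10 passed and 1 had an unadjusted p under 0.05. The count was also 0 without scramble library 2, 4 or 5 or knockdown library 2 or 4 (2 or 3 at an unadjusted p under 0.05), and 1 without scramble library 1, knockdown library 3 or the library labelled knockdown 5.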

How the data were processed

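RNA of 10 CA3 libraries, 5 scramble and 5 knockdown, was analysed, with group and number read from each sample's title. Per the labels' protocols, polyadenylated RNA was sequenced as read pairs. Per the submitters' processing notes the authors used HISAT2 and featureCounts with the build mm10; versions, strandedness and annotation are not stated. The deposited tables hold unnormalized counts. Of 18453 Ensembl identifiers, 18421 were in GENCODE M21 (GRCm38, the assembly of mm10), the source of symbols, coordinates, transcript length and GC content.

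Counts were tested with edgeR 4.0.16 in R 4.3.3 (filterByExpr, TMM, robust quasi-likelihood, Benjamini-Hochberg over 14393 genes, threshold 0.05); a standard error is the log2 fold change over the square root of F. CPM use TMM-scaled totals of the tested genes, and log2 CPM a prior count of 2. A marker score averages the log2 CPM of its genes, each centred over the libraries. For the length and GC correction, natural splines (5 degrees of freedom) were fitted per library to deviations from each gene's average and entered as offsets. Alternatives also used DESeq2 1.42.0, limma 3.58.1 and sva 3.50.0. The steps were tested on simulated data. No library duplicated another (chi-square per degree of freedom within groups 3.74 to 37.4).

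The members, lists and alternatives were chosen with earlier results of these data known. Named are the members, Mef2c, Nalf2, the 4 smallest p values of each list, and for each member the 3 genes with the most similar deviations. A few genes covered by this rule are not reported here. Cacna1a, Cacna1h, Map2, Nptx1, Kcnq5 and Bok fall outside the rule and were named after their values were seen.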

Additional observations from a re-analysis of the deposited data

Results flagged for a closer look

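Mef2c in scramble library 4 stood at 312 CPM, far from the next highest scramble library at 198 CPM, and the gap was 0.784 of the group's range. About 1 in 20 groups of 5 is flagged this way by chance. The cortical layer score of this library, 0.54, was also the highest of its group (the others -0.10 to 0.08). In the same library Unc79 stood at 96.4 CPM, the lowest of its group, and Nalcn, Unc80 and Fam155a lay inside the range of theirs. No member was flagged in either group.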

How the results depend on the processing

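The log2 fold changes of Nalcn, Unc79 and Unc80 were negative in all 24 alternatives and that of Fam155a was between 0 and 0.09. Leaving out single libraries gave -0.49 to -0.41 for Nalcn, -0.42 to -0.32 for Unc79, -0.67 to -0.59 for Unc80 and 0 to 0.09 for Fam155a. Larger shifts came with the length and GC offsets (Nalcn -0.20, Unc79 -0.07, Unc80 -0.18), the microglia covariate (Nalcn -0.35, Unc80 -0.45) and the removal of knockdown libraries 2, 3 and 4 (Unc79 -0.24, Unc80 -0.51); their cause was not tested. Mef2c was 0.15 (SE 0.366) with the microglia covariate, -0.45 (edgeR adjusted p = 0.0274) without scramble library 4 and the library labelled knockdown 5, and -0.64 to -0.14 without single libraries.

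Genes called, 1766 here, were 3393 with limma-voom, 2938 with the cortical and 2749 with the pan-neuronal covariate, 710 with 1 surrogate variable, 238 with the length and GC offsets, 1029 without scramble library 4 and the library labelled knockdown 5, 631 to 3305 without single libraries, and 0 with the microglia covariate or without knockdown libraries 2, 3 and 4 (2528 and 2590 at an unadjusted p under 0.05). Of the channel partners, 2 were called with the DESeq2 Wald test and with the cortical or pan-neuronal covariate, 3 with limma-voom, 0 with 1 surrogate variable, the offsets, the microglia covariate or either removal of several libraries, and 0 to 4 without single libraries. Of the potassium channels, 1 was called with 1 surrogate variable and without scramble library 4 and the library labelled knockdown 5, 0 with the offsets, the microglia covariate or without knockdown libraries 2, 3 and 4, and 0 to 3 without single libraries. Of the sodium and calcium channel genes, 6 were called with 1 surrogate variable, 0 with the offsets, the microglia covariate or without knockdown libraries 2, 3 and 4, and 5 to 12 without single libraries.

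Deviations of same-numbered libraries correlated between -0.11 and 0.40, over 0.1 in 3 of 5 pairs, and 1 of 5 scramble libraries resembled its own number most. With so few pairs, these values cannot settle whether equal replicate numbers mark paired samples. With the replicate block 1313 genes were called, and the values were -0.45 for Nalcn, -0.36 for Unc79, -0.63 for Unc80 and 0.04 for Fam155a.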
